A study of Homo sapiens with 4 samples.

Results

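The genes described here are regulators and transcriptional targets of the tumour suppressor p53. They were chosen as a fixed list of 36 symbols, with earlier results of these data known. A gene was a member when its Ensembl identifier in a count table carried one of those symbols. Of these, 35 were listed for at least 1 cell line, out of 13113 genes listed for either line. The SiHa table held 34 of them among 12189 genes and the MS751 table held 34 among 12036. EDA2R was listed for neither line, CCNG1 was not listed for SiHa and SPATA18 was not listed for MS751, which leaves 33 members measured in both. The gene of p53 itself is not in the list.

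RNA-seq counts came from SiHa and MS751, established squamous carcinoma lines of the human cervix with no engineered allele named in the labels. Each line received either a control siRNA (siControl) or siDDX24-1, an siRNA against the RNA helicase gene DDX24, and RNA was collected on day 2. There were 4 groups of 1 library, so a fold within a line rests on a single pair of libraries and carries no replicate check and no p-value. All knockdown libraries used a single siRNA sequence, so effects of that sequence apart from loss of DDX24 cannot be told apart from effects of the loss. DDX24 itself was counted 3464 times in SiHa siControl and 575 times after siDDX24-1, and 2072 and 993 times in MS751, which is 6.55-fold and 2.30-fold lower. Library totals lay between 13160487 and 20117442 counts. The epithelial genes KRT8, KRT18 and EPCAM were listed in both lines, and KRT17, KRT19 and CDH1 for SiHa alone. That is 6 of 8 epithelial and squamous markers for SiHa and 3 of 8 for MS751. The basal squamous keratins KRT5 and KRT6A were listed in neither. Scaled for library depth, siControl KRT8 was 54.1-fold, KRT18 7.47-fold and EPCAM 1.17-fold higher in SiHa than in MS751. Of other markers, leukocyte CD14 had 3845 counts in SiHa siControl, endothelial PECAM1 225 and fibroblast PDGFRB 23. In MS751 siControl the fibroblast markers COL1A2 and LUM had 32 and 15 counts. No leukocyte or endothelial marker was listed for MS751. In bulk RNA, fewer cells of a kind and less RNA per cell cannot be told apart.

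p53 is a transcription factor that is kept low in unstressed cells. MDM2 attaches ubiquitin to it, and MDM4, a relative of MDM2, binds it and blocks its activity. After DNA damage or other stress p53 accumulates and switches on genes of cell cycle arrest, apoptosis, DNA repair and metabolism, among them MDM2, which closes a feedback loop. In cervical carcinoma the papillomavirus protein E6 recruits a cellular ubiquitin ligase, UBE3A (also called E6AP), to degrade p53.

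p53 binds DNA through paired half-sites of 10 bases each. RefSeq promoter windows (GRCh38.p14) ran from 250 bases before a gene's start to 50 after it and were available for 31 of the 36 genes, as 47 windows. GADD45A, PHLDA3, RRM2B, TNFRSF10B and TP53INP1 had no window in the set used. An exact p53 half-site, a palindromic consensus that reads alike on both strands, was present in a window of 7 of the 31 genes (22.6%) and of 2202 of all 27305 genes with a window (8.06%). The stretches of 30 bases around them are shown because these promoters belong to genes whose folds went in different directions, and capitals mark the half-sites.
DDB2 (chr11:47214974-47215003, plus strand): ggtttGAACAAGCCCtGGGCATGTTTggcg
FAS (chr10:88991299-88991328, plus strand): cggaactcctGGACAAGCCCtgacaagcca
SESN1 (chr6:109009018-109009047, minus strand): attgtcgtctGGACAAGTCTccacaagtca
PLK2 (chr5:58460199-58460228, minus strand): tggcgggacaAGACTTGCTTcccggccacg
RPS27L (chr15:63157517-63157546, minus strand): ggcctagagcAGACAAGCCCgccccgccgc
AEN (chr15:88621296-88621325, plus strand): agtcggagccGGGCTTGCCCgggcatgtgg
FDXR (chr17:74872986-74873015, minus strand): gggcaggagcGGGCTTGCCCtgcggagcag
DDB2 held 2 half-sites separated by 1 base, starting at bases 6 and 17 of the transcript. A pair with a gap of 0 to 13 bases was found in 10 of the 35116 windows of all genes. A match describes the letters only and is not evidence of binding.

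The members with the highest and the lowest fold in SiHa, MDM4 and GDF15, had no exact half-site in their windows. The 250 bases before each start are shown because these genes carried the most extreme member folds in SiHa. In MDM4 capitals mark CCGGAAG, the core of sites for ETS transcription factors, searched on both strands and present in 5 of the 31 members and in 12.2% of all genes with a window.
MDM4 (chr1:204516156-204516405, plus strand): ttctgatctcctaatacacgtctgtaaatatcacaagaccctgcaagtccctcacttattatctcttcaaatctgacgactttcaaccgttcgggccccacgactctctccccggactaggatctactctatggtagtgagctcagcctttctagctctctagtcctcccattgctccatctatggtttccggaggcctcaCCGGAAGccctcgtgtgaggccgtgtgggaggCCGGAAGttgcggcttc
In GDF15 capitals mark the TATA box letters TATAAA, searched on both strands and present in 14% of all genes with a window, and in none of the other members with a window.
GDF15 (chr19:18385908-18386157, plus strand): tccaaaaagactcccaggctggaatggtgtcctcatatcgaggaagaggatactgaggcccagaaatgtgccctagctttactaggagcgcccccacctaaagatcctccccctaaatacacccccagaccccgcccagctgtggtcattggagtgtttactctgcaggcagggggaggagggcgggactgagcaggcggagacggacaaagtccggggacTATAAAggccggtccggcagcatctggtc
The MDM4 motifs start 49 and 17 bases before the RefSeq start that defines its window, and that of GDF15 starts 29 bases before its RefSeq start. These starts lie downstream of the GENCODE gene starts given with the values of both genes.

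Most p53 targets were slightly lower in the SiHa knockdown library, and in MS751 the members went both ways. Each fold divides the siDDX24-1 level by the siControl level and is given as log2, and its 95% interval covers counting error only. In SiHa, 24 of 34 members (70.6%) had a fold below 0, against 50.4% of all genes. In SiHa, 20 of 34 (58.8%) had an interval wholly below 0, against 30.0% of all genes, and 7 (20.6%) had one wholly above 0, against 30.2%. The median member fold in SiHa was -0.27, and that of all genes was -0.0041. In MS751, 20 of 34 members (58.8%) were below 0, against 50.0% of all genes. There, 15 of 34 (44.1%) had an interval below 0, against 36.1% of all genes, and 12 (35.3%) had one above 0, against 36.4%, with a member median of -0.085 and an all-gene median of 0.00081.

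Few members passed 2-fold. In SiHa, 1 member was at least 2-fold higher (2.94%, against 1.46% of all genes) and 2 were at least 2-fold lower (5.88%, against 3.05%). In MS751, 1 was at least 2-fold higher (2.94%, against 3.74%) and 5 were at least 2-fold lower (14.7%, against 8.55%). In either direction 4.51% of all SiHa genes and 12.3% of all MS751 genes passed 2-fold. MDM4 was the member past 2-fold higher in each line, and GDF15 and PIDD1 were past 2-fold lower in each. BTG2 in SiHa (-0.998), E2F7 in MS751 (0.999) and FAS in MS751 (0.994) lay just short of the threshold, and PIDD1 in SiHa (-1.072) and GADD45A in MS751 (-1.069) just past it. Folds were lower for transcripts of higher GC content in both lines, and with that trend removed the MS751 members past 2-fold were 1 higher (against 3.23% of all genes) and 1 lower, the latter DDB2, where 842 of all 12036 genes were lower. In SiHa the counts were then 1 higher (against 1.55% of all genes) and 2 lower (against 2.49%), with BTG2 in place of PIDD1.

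**Figure D1:**
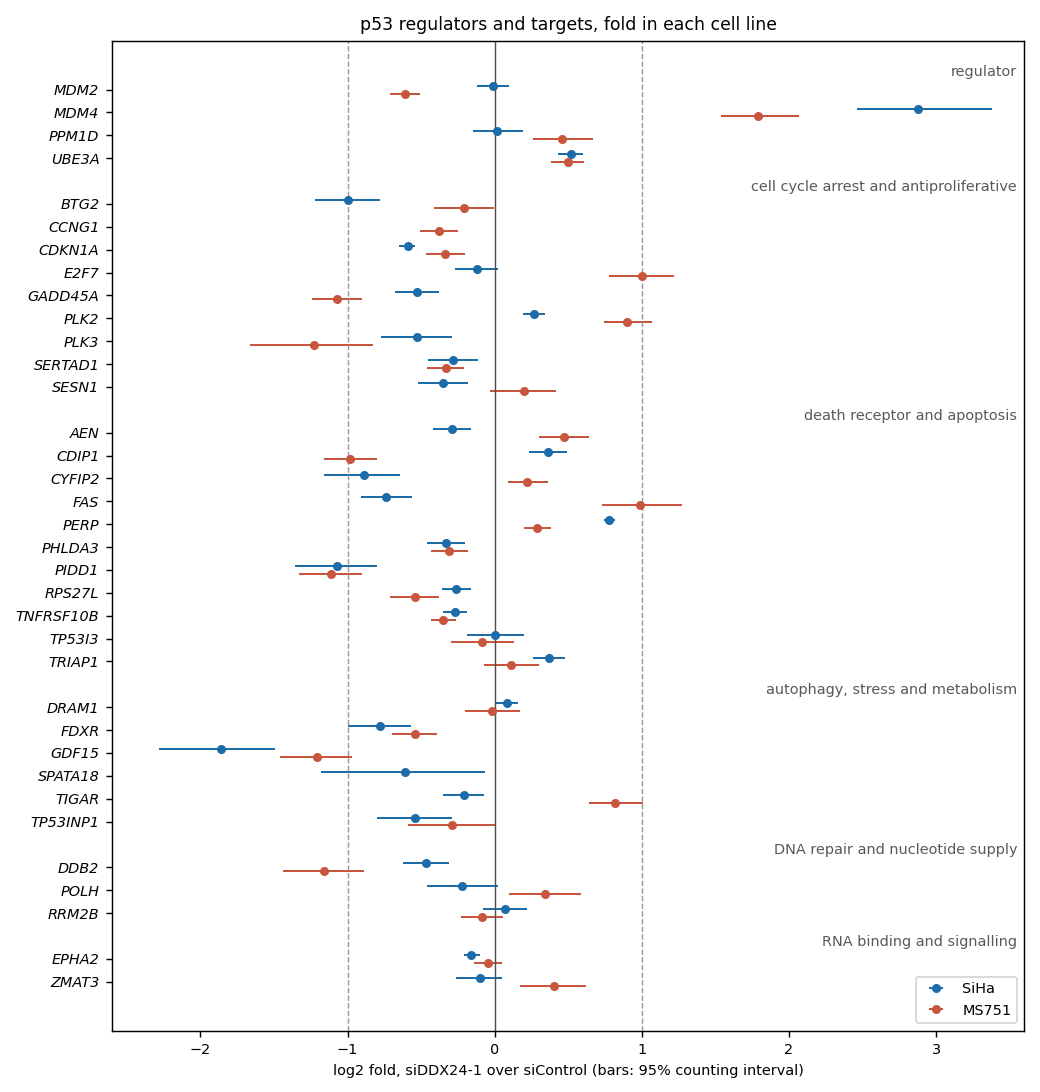
Log2 fold of each gene, siDDX24-1 over siControl, in SiHa (blue) and MS751 (red), grouped by role; bars are 95% counting intervals from 1 library per arm, and dashed lines mark 2-fold. MDM4 lies farthest to the right in both lines at 2.88 and 1.79, and GDF15 farthest to the left in SiHa at -1.86.

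Among the regulators, the p53 inhibitor MDM4 and the ubiquitin ligase UBE3A were higher in each knockdown library, while MDM2 was not. MDM4 (ENSG00000198625, chromosome 1, 204516379 to 204558120, plus strand) was counted 46 times in the SiHa siControl library and 376 times after siDDX24-1. Its log2 fold there was 2.88, with a 95% interval of 2.46 to 3.38. This was the 4th highest fold of the 12189 genes compared in SiHa. The MS751 counts of MDM4 were 150 and 577, which put its log2 fold at 1.79 (95% interval 1.54 to 2.07), the 71st highest of 12036. The siControl libraries were thus the low ones in both lines, and no exon of another gene overlaps MDM4 in GENCODE release 29. The read counter is not stated, and whether it assigned all MDM4 reads in the low siControl libraries was not tested. Removing the GC trend left MDM4 at 2.75 and 1.56.

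UBE3A, the ligase that E6 uses, was counted 1858 times in SiHa siControl and 2897 times after siDDX24-1 (log2 fold 0.52, 95% interval 0.43 to 0.60). Its MS751 counts were 1027 and 1600 (log2 fold 0.50, 95% interval 0.38 to 0.61). The UBE3A folds of the lines differed by less than their counting intervals, and with the GC trend removed they were 0.38 and 0.24. Exons of the long antisense RNA SNHG14 overlap UBE3A, and no source used here says whether counting used strand. MDM2, both inhibitor and target of p53, had 1342 and 1451 counts in SiHa (log2 fold -0.01, 95% interval -0.12 to 0.098). MDM2 counts in MS751 were 1921 and 1386 (log2 fold -0.61, 95% interval -0.71 to -0.51), so its siControl library was the higher one there. Exons of MDM2 overlap those of CPM, which encodes a carboxypeptidase. PPM1D, a phosphatase that switches p53 signalling off, had 559 and 616 counts in SiHa (0.017) and 327 and 498 in MS751 (0.46).

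The members grouped under growth arrest and cell cycle control were mostly lower, with exceptions in the polo-like kinase PLK2 and, in MS751, the repressor E2F7. In SiHa 6 of 8 listed members had an interval below 0 and 1 above it, and in MS751 6 of 9 below and 2 above, with medians of -0.44 and -0.33. Of all genes 30.0% were below and 30.2% above in SiHa, and 36.1% and 36.4% in MS751. CDKN1A, the cyclin-dependent kinase inhibitor that carries much of p53's arrest function, was counted 6554 times in SiHa siControl and 4731 times after siDDX24-1 (log2 fold -0.59, 95% interval -0.65 to -0.54). Its MS751 counts were 951 and 831 (log2 fold -0.34, 95% interval -0.47 to -0.20). Both knockdown libraries were thus lower, but the MS751 value was -0.10 with the GC trend removed. Exons of the noncoding RNA DINOL lie antisense to CDKN1A.

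BTG2, an antiproliferative cofactor of mRNA decay, had 487 and 265 counts in SiHa (log2 fold -0.998) and 419 and 401 in MS751 (log2 fold -0.21). GADD45A, a growth arrest gene of the DNA damage response, had 825 and 623 counts in SiHa (-0.53) and 841 and 442 in MS751 (-1.07). PLK3, a stress-responsive kinase, had 345 and 260 counts in SiHa (-0.53) and 154 and 72 in MS751 (-1.23). For these 3 genes every knockdown library was below its control, with the deeper difference in SiHa for BTG2 and in MS751 for GADD45A and PLK3. Exons of PLK3 overlap those of DYNLT4. PLK2, by contrast, had 2607 and 3413 counts in SiHa (0.27) and 426 and 880 in MS751 (0.90). E2F7, which represses cell cycle genes, had 768 and 769 counts in SiHa (-0.12, 95% interval -0.27 to 0.025) and 247 and 546 in MS751 (0.999, 95% interval 0.78 to 1.22). SERTAD1, a regulator of cyclin D kinase activity and E2F, was lower by similar amounts in both lines (-0.28 and -0.33). SESN1, a stress-inducible inhibitor of mTORC1 signalling, was at -0.35 in SiHa and 0.20 in MS751, where its interval covered 0. CCNG1, a cyclin induced by p53, was measured in MS751 alone, with 1110 and 941 counts (-0.38).

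Genes of apoptosis were more often lower than higher in SiHa and went both ways in MS751. In SiHa 7 of 11 had an interval below 0 (63.6%, against 30.0% of all genes) and 3 above (27.3%, against 30.2%). In MS751 5 of 11 were below (45.5%, against 36.1%) and 4 above (36.4%, against 36.4%). The medians were -0.27 in SiHa and -0.084 in MS751, and -0.22 and 0.045 with the GC trend removed. PIDD1, a death domain protein of the caspase-2 activating complex, was counted 310 times in SiHa siControl and 160 times after siDDX24-1 (log2 fold -1.07, 95% interval -1.36 to -0.80) and 549 and 280 in MS751 (-1.11, 95% interval -1.33 to -0.90). PIDD1 is the most GC-rich member (66.0%), its folds were -0.77 and -0.52 with the GC trend removed, and its exons overlap RPLP2 and PANO1. PERP, a membrane protein of desmosomes and apoptosis, had 7125 and 13348 counts in SiHa (0.78, 95% interval 0.74 to 0.82) and 1658 and 2239 in MS751 (0.29, 95% interval 0.20 to 0.38). The knockdown library of PERP was thus the higher one in both lines, although the MS751 fold was 0.045 with the GC trend removed.

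Death receptor genes differed from each other. FAS, the receptor for Fas ligand, had 669 and 437 counts in SiHa (log2 fold -0.74, 95% interval -0.91 to -0.56) but 171 and 377 in MS751 (0.99, 95% interval 0.73 to 1.27). TNFRSF10B, a receptor for TRAIL, had 2587 and 2331 counts in SiHa (-0.27) and 2497 and 2168 in MS751 (-0.35). So TNFRSF10B was slightly lower in both knockdown libraries, while FAS was lower in one and higher in the other. Exons of FAS overlap ACTA2, and those of TNFRSF10B overlap RHOBTB2.

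CDIP1, a pro-apoptotic target, had 849 and 1188 counts in SiHa (log2 fold 0.36) and 703 and 393 in MS751 (-0.98). CYFIP2, a member of the WAVE actin regulatory complex, had 327 and 191 counts in SiHa (-0.89) and 774 and 999 in MS751 (0.22). AEN, an apoptosis-enhancing nuclease, had 1034 and 920 counts in SiHa (-0.29) and 476 and 728 in MS751 (0.47). These genes had counting intervals on opposite sides of 0 in the 2 lines. Exons of CYFIP2 overlap ADAM19 and ENSG00000285868. PHLDA3, an inhibitor of AKT, was at -0.33 in SiHa and -0.31 in MS751, and RPS27L, a ribosomal protein paralogue, at -0.26 and -0.54. TRIAP1, a small protein that limits apoptosis, was at 0.37 and 0.11, and TP53I3, a quinone oxidoreductase, at 0.0056 and -0.084, where both intervals covered 0. Exons of TP53I3 overlap FAM228B.

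The stress and metabolic targets were led by GDF15, a secreted stress cytokine of the TGF-beta superfamily. GDF15 (ENSG00000130513, chromosome 19, 18374731 to 18389176, plus strand) was counted 236 times in SiHa siControl and 70 times after siDDX24-1. The log2 fold of -1.86 (95% interval -2.28 to -1.49) was the 44th lowest of 12189 genes. Its MS751 counts were 445 and 212 (log2 fold -1.21, 95% interval -1.46 to -0.97). The knockdown libraries of GDF15 were thus 3.63-fold and 2.31-fold lower, and its folds with the GC trend removed were -1.69 and -0.90. FDXR, a mitochondrial reductase, had 460 and 291 counts in SiHa (-0.78) and 820 and 621 in MS751 (-0.54), which became -0.53 and -0.073 with the GC trend removed. TP53INP1, an autophagy and stress protein, was at -0.54 in SiHa and -0.29 in MS751, where its interval of -0.59 to 0.01 covered 0. TIGAR, a phosphatase that lowers glycolytic flux, had 882 and 831 counts in SiHa (-0.21) and 374 and 731 in MS751 (0.82). Exons of TIGAR overlap the protein-coding gene ENSG00000285901. DRAM1, a lysosomal protein of autophagy, had folds of 0.084 and -0.017. SPATA18, a gene of mitochondrial quality control, was measured in SiHa alone, with 69 and 49 counts (-0.61, 95% interval -1.18 to -0.067).

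Of the repair genes, DDB2, whose product recognises ultraviolet damage and whose paired half-sites are printed above, had 781 and 615 counts in SiHa (log2 fold -0.47, 95% interval -0.62 to -0.31). The MS751 counts of DDB2 were 335 and 165 (-1.16, 95% interval -1.44 to -0.89). Its knockdown libraries were lower in both lines, and the folds barely moved with the GC trend removed (-0.44 and -1.13). POLH, a translesion DNA polymerase, was at -0.22 in SiHa, with an interval covering 0, and 0.34 in MS751. Exons of POLH overlap GTPBP2. RRM2B, a ribonucleotide reductase subunit, was at 0.069 and -0.086, with both intervals covering 0. ZMAT3, an RNA-binding splicing regulator, was at -0.10 and 0.40, and EPHA2, an ephrin receptor tyrosine kinase, at -0.16 and -0.044.

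Between lines, 12 of the 33 members measured in both had an interval below 0 in each line (16.8% of all 11112 shared genes did) and 4 had one above 0 in each (18.3% of all genes). The 4 were MDM4, UBE3A, PLK2 and PERP. Intervals on opposite sides of 0 were found for 5 members, against 12.2% of all genes, and of these 4 were lower in SiHa and higher in MS751 (FAS, AEN, CYFIP2 and TIGAR) and 1 was the reverse (CDIP1). Across the 33 members the folds of the lines had a Spearman's rho of 0.476, and 0.325 with the GC trend removed. Over all shared genes rho was 0.376, and 0.283 with the trend removed. The sign of the fold was the same in both lines for 21 of the 33 members and for 64.7% of all shared genes. Past 2-fold lower in both were 2 members (against 0.900% of all genes) and past 2-fold higher in both 1 (against 0.243%). With the GC trend removed, neither GDF15 (-1.69 in SiHa and -0.90 in MS751) nor PIDD1 (-0.77 and -0.52) was past 2-fold lower in both. The lines share no library, but genes of one library share its depth and GC trend.

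**Figure D2:**
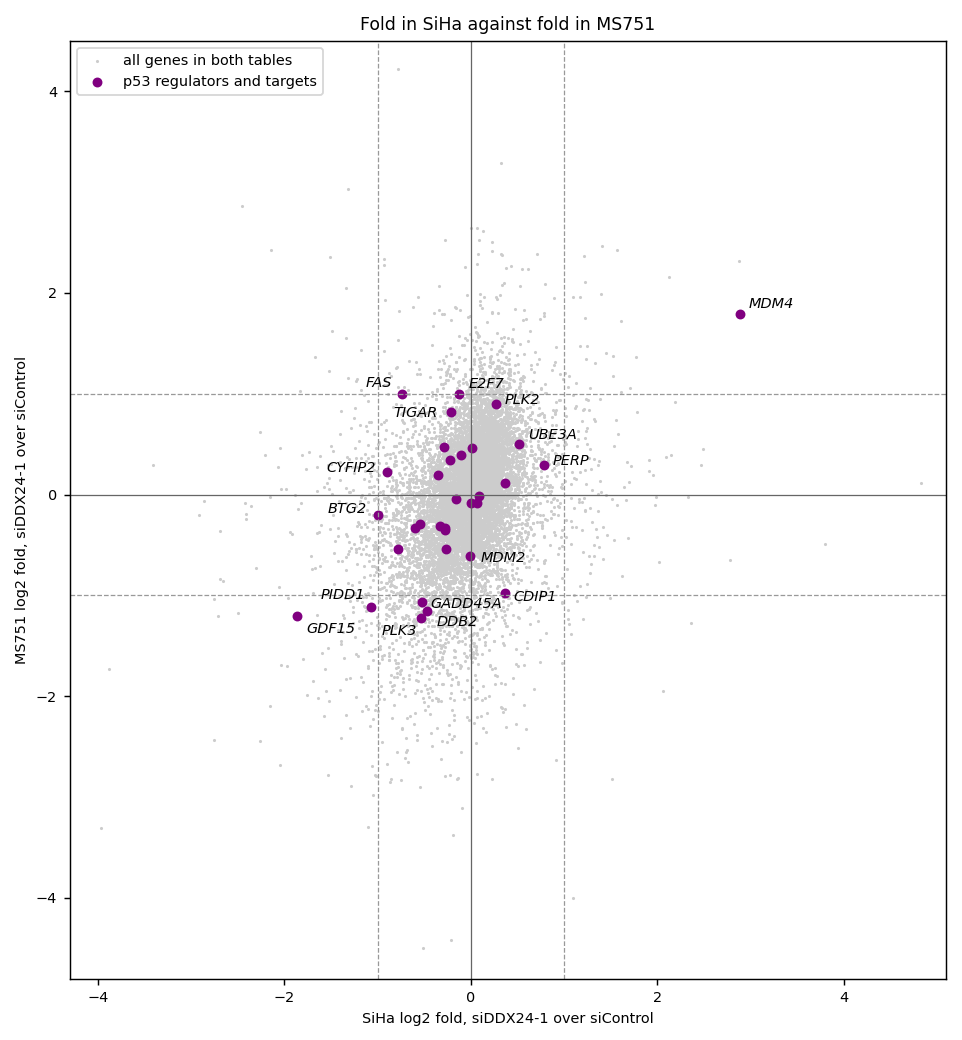
Log2 fold in SiHa (x) against log2 fold in MS751 (y) for the p53 regulators and targets (purple) and for all genes listed in both tables (grey); dashed lines mark 2-fold. The GC trend is not removed from these folds. MDM4 is the purple point past 2-fold higher in both lines, GDF15 and PIDD1 are past 2-fold lower in both lines, and FAS and TIGAR are lower in SiHa and higher in MS751.

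Both lines were then fitted together over all 11112 shared genes in edgeR by quasi-likelihood, blocking on cell line, with Benjamini-Hochberg adjustment. No member passed an adjusted p of 0.05, and of all genes 2 passed higher and 3 lower (0.0180% and 0.0270%). The member nearest to the threshold was MDM4, with a log2 fold of 2.30 (SE 0.35), higher in 2 of 2 lines, and an edgeR adjusted p of 0.152. GDF15 followed at -1.55 (SE 0.31, edgeR adjusted p = 0.203) and PIDD1 at -1.11 (SE 0.25, edgeR adjusted p = 0.246), both lower in 2 of 2 lines. At an unadjusted p under 0.05, edgeR gave 3 members higher (MDM4, UBE3A and PLK2) and 7 lower (GDF15, PIDD1, GADD45A, DDB2, FDXR, PLK3 and CDKN1A), together 30.3% of the 33. Of all genes 4.34% were higher and 8.30% lower at that p, together 12.6%. DESeq2 with the same block called MDM4 (adjusted p = 5.31e-05) and GDF15 (adjusted p = 0.0193) among 97 genes, 0.234% of all genes higher and 0.639% lower. limma called no member. This test has 1 residual degree of freedom, the difference of the fold between the 2 lines. Its p-values set the common fold against that difference, with the spread shared across genes, and not against replicate libraries. The labels do not say whether libraries came from separate cultures.

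The siControl levels of several members differed between the lines. Given as CPM per kb of exon, the highest siControl levels in SiHa were those of CDKN1A (119), PERP (91.8) and EPHA2 (76.0). The length took in all annotated exons of a gene, whichever transcripts were expressed, so genes can be compared only roughly. In MS751 siControl the highest were SERTAD1 (38.4), TNFRSF10B (36.6) and EPHA2 (34.0), and CDKN1A stood at 23.6. With 1 library each, the neighbours in this order have no spread to be set against. On a common scale over the 4 libraries, CDKN1A was at 388 CPM in SiHa siControl and 72.6 in MS751 siControl, 5.35-fold higher in SiHa. PLK2 was 4.75-fold and DRAM1 3.83-fold higher in SiHa, while CYFIP2 was 3.05-fold, GDF15 2.43-fold and MDM4 4.20-fold higher in MS751. Of the 33 members, 9 were at least 2-fold higher in SiHa (27.3%, against 14.6% of all shared genes) and 6 at least 2-fold higher in MS751 (18.2%, against 15%).

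MDM4 had the lowest siControl level per kb of all listed members in each line, 0.231 in SiHa and 1.03 in MS751. In SiHa siControl 0.968% of all listed genes lay below it, and in the knockdown library, at 1.73, 19.5% did. In MS751 these shares were 8.47% and, at 3.59 with siDDX24-1, 32%. Its partner MDM2 was at 5.59 and 5.55 CPM per kb in SiHa and 10.9 and 7.15 in MS751, so MDM2 stayed above MDM4 in all 4 libraries.

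**Figure D3:**
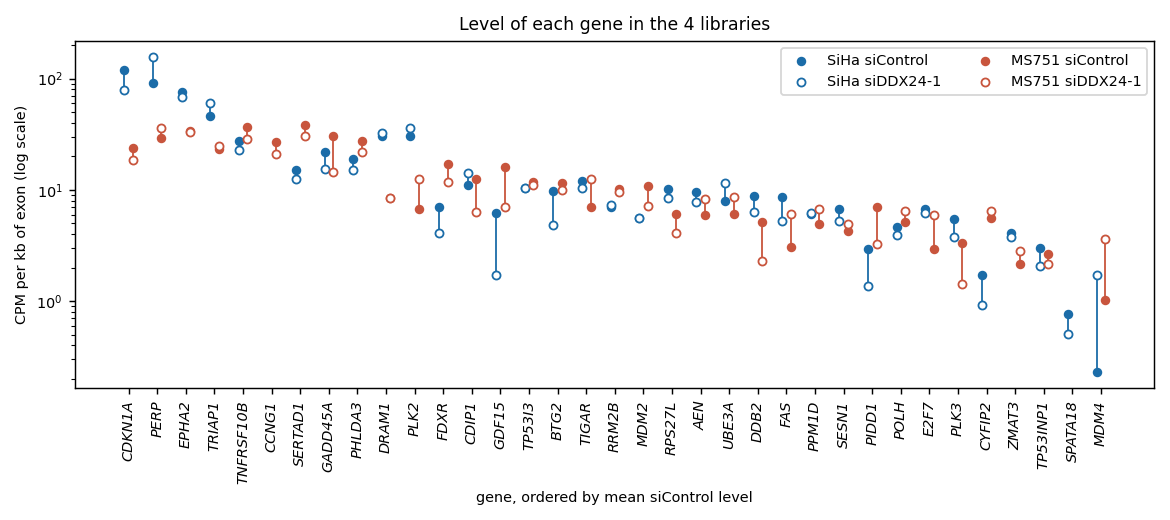
Level of each gene in CPM per kb of exon (log axis) in the 4 libraries; filled points are siControl, open points siDDX24-1, and lines join the arms of a cell line (SiHa blue, MS751 red), with 1 library per point. CDKN1A in SiHa siControl is highest among the filled points at 119 and MDM4 in SiHa siControl lowest at 0.231.

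Transcript GC content moved with the fold among the members as it did among all genes. In SiHa Spearman's rho between GC content and log2 fold was -0.453 over the 34 members and -0.343 over all genes, and in MS751 -0.460 and -0.376. The points of a line share their libraries, and genes are not independent replicates. With the smooth trend of all genes removed, the member medians were -0.26 in SiHa and -0.075 in MS751. Removing it turned the sign of EPHA2 in both lines (to 0.043 and 0.32), of DRAM1, PPM1D and RRM2B in SiHa and of SESN1, TRIAP1, PHLDA3 and TP53I3 in MS751. The members with the lowest GC content were TP53INP1 and RRM2B (39.5% each) and CCNG1 (39.8%), and those with the highest were PIDD1 (66.0%), FDXR (63.5%) and EPHA2 (61.4%). The relation was loose, since the GC-poor TP53INP1 and CCNG1 had folds below 0 and the GC-rich EPHA2 had folds near 0.

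**Figure D4:**
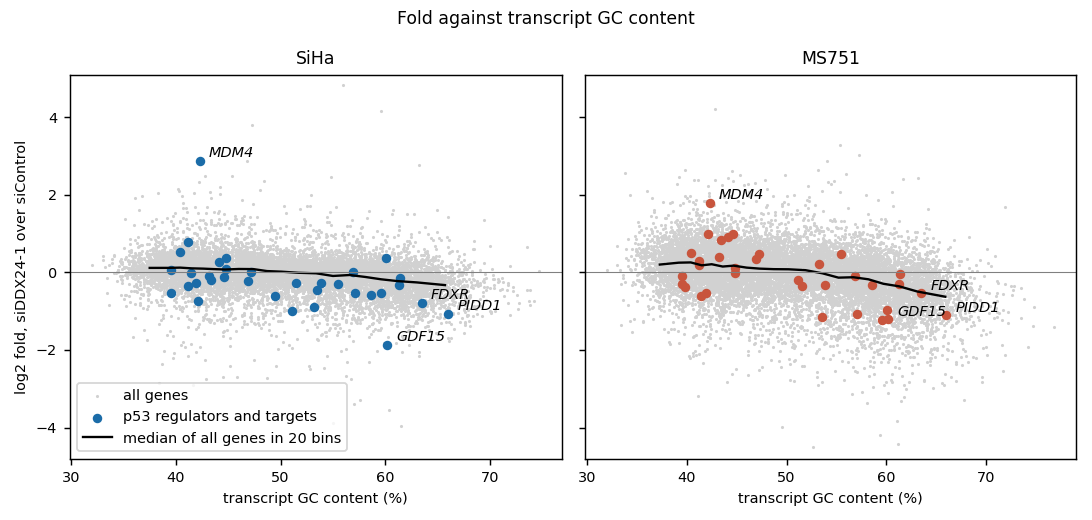
Log2 fold against transcript GC content in SiHa (left) and MS751 (right), with the p53 regulators and targets coloured, all genes in grey and the median of all genes in 20 bins of GC content as a line. The line lies above 0 at low GC content and below 0 at high GC content in both panels, and MDM4 lies far above it at 2.88 and 1.79.

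Other p53 genes were followed in lists written from general knowledge of the pathway. Earlier results of these data were known when the lists were written, so their shares are descriptive only. Of 75 further direct p53 targets, 73 were listed in SiHa, where 35 had an interval below 0 and 17 above, and 68 in MS751, where 33 were below and 14 above. Below 0 were thus 47.9% and 48.5% of those listed, against 30.0% and 36.1% of all genes, and above 0 23.3% and 20.6%, against 30.2% and 36.4%. The list medians were -0.17 and -0.24, and -0.099 and -0.18 with the GC trend removed. In SiHa, 2 of the 73 were at least 2-fold lower (2.74%, against 3.05% of all genes) and 0 at least 2-fold higher (against 1.46%). Among the lower ones was TRIM22 (log2 fold -1.25), an antiviral ligase that interferon also induces. In MS751, 10 were at least 2-fold lower (14.7%, against 8.55% of all genes), led by SFN (-2.18), a 14-3-3 protein of the G2 checkpoint, BBC3 (-1.98), a pro-apoptotic BH3-only protein, TRIM32 (-1.67) and BCL6 (-1.51). CES2 (1.25) and PANK1 (1.20) were at least 2-fold higher there (2.94%, against 3.74% of all genes). edgeR called none of the 66 further targets measured in both lines, with 1 higher and 9 lower at an unadjusted p under 0.05 (15.2%, against 12.6% of all genes), and DESeq2 called 1.

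Of 40 other regulators of p53, 20 in each line had an interval above 0, with 9 below in SiHa and 13 in MS751, and medians of 0.13 and 0.066. Above 0 this is 50% of the list in each line, against 30.2% and 36.4% of all genes, and below 0 it is 22.5% and 32.5%, against 30.0% and 36.1%. Removing the GC trend left list medians of 0.048 in SiHa and -0.011 in MS751. None of the 40 was past 2-fold in SiHa. In MS751, 2 were at least 2-fold higher (5%, against 3.74% of all genes). They were the proteasome activator PSME3 (603 and 3829 counts, log2 fold 2.52) and the arginine methyltransferase PRMT5 (1.21). PSME3 was at -0.27 in SiHa. edgeR called none of the 40, with 3 higher and 2 lower at an unadjusted p under 0.05 (12.5%, against 12.6% of all genes), and DESeq2 called none.

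Genes listed as targets that the DREAM complex represses downstream of CDKN1A were mostly slightly higher in both knockdown libraries. Whether their folds are tied to those of CDKN1A was not tested. Their median GC content was 45.9%, against 49.3% for all SiHa genes and 49.4% for all MS751 genes. Of 40 such genes, 32 in SiHa and 35 in MS751 had an interval above 0, and the medians were 0.30 and 0.42. These counts are 80% and 87.5% of the list, against 30.2% and 36.4% of all genes. Removing the GC trend left list medians of 0.24 in SiHa and 0.34 in MS751. In SiHa, 2 of the 40 were at least 2-fold higher (5%, against 1.46% of all genes), among them AURKA (1.33), a mitotic kinase. FOXM1 (-1.53), a mitotic transcription factor, was the 1 gene at least 2-fold lower (2.5%, against 3.05%). In MS751 CDC25A (1.83), RRM2 (1.79), AURKA (1.31) and MCM6 (1.07) were at least 2-fold higher (10%, against 3.74% of all genes). edgeR called none of the 40, with 11 higher (27.5%, against 4.34% of all genes) and 0 lower at an unadjusted p under 0.05, and DESeq2 called 1, AURKA (adjusted p = 0.0016). Of 9 substrates that E6 binds through their PDZ domains, 1 was past 2-fold, TAX1BP3 in SiHa (1.40). That is 11.1% higher there, against 1.46% of all genes. The medians were 0.024 and 0.21, and 0.13 and 0.24 with the GC trend removed. edgeR called none of the 9, with 0 at an unadjusted p under 0.05, and DESeq2 called none.

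**Figure D5:**
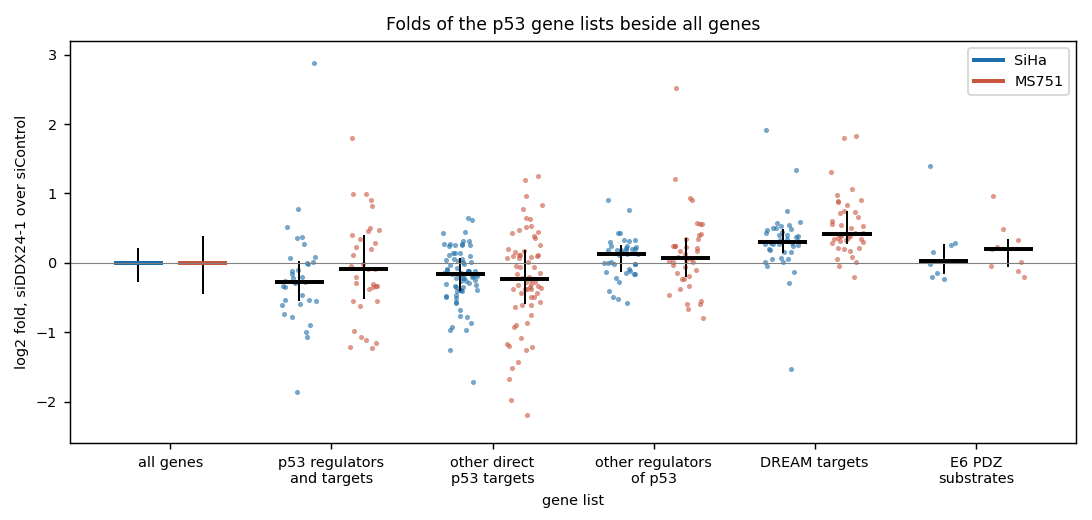
Log2 fold of each gene (points, SiHa blue, MS751 red) in the lists of p53 genes; short horizontal bars are medians and vertical bars the range from the first to the third quartile, also for all genes, whose points are not drawn. The medians of the DREAM targets lie at 0.30 and 0.42, and those of the p53 regulators and targets at -0.27 and -0.085.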

How the data were processed

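The authors deposited 1 table of raw whole-number counts by gene for each cell line. HISAT2 2.0.4, StringTie 1.3.4d, fastp 0.23.2 and the build GRCh38.p12 (hg38) are named, without roles, in the submitters' processing notes. The counter, its strand setting and its annotation were not stated there. The lowest deposited value was 1.017 CPM, so a gene low in either library is not listed. Repeated identifiers with identical values were dropped (70 copies in SiHa, 73 in MS751). Exons, GC content and positions came from GENCODE release 29. edgeR 4.0.16 in R 4.3.3 gave TMM-scaled log2 CPM (prior count 1, mean of at least 1 CPM). Intervals are exact conditional intervals of a ratio of counts. They cover counting error only, and PCR copies are not independent molecules. The common change was tested by edgeR's quasi-likelihood method, blocking on cell line, with DESeq2 1.42.0, limma 3.58.1 and a GC trend removed (mgcv 1.9.3) as alternatives. The SE is the absolute log2 fold over the square root of F. Functions were tested on simulated counts. All members were named, with up to 4 genes per other list, line and direction past 2-fold, except that some genes of those lists are not reported here. Members and lists were chosen with earlier results of these data known.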

Additional observations from a re-analysis of the deposited data

Results flagged for a closer look

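For 5 genes the counting intervals of the log2 fold lay on opposite sides of 0 in the 2 lines, with 1 library per arm, and the difference between the lines was not tested. FAS was at -0.74 in SiHa and 0.99 in MS751. AEN was at -0.29 in SiHa and 0.47 in MS751. CDIP1 was at 0.36 in SiHa and -0.98 in MS751. CYFIP2 was at -0.89 in SiHa and 0.22 in MS751. TIGAR was at -0.21 in SiHa and 0.82 in MS751. Opposite intervals were found for 12.2% of all shared genes.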

How the results depend on the processing

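The labels give no replicate numbers, so no analysis paired by replicate number was possible; the cell line served as the block of the common test. Of 824 member values recomputed under the alternatives, 787 stayed within their counting interval or on their side of the threshold. Another 35 moved beyond their interval (32 with the GC trend removed, 3 with library totals), 2 became calls under DESeq2 and none of the called values reversed. The 787 include 68 values with no filter and 50 of members without exon overlap, which equal the main values by construction. In the common test edgeR called no member, so no member call could be lost or reversed there. At a 1.5-fold threshold SiHa had 2 members higher and 8 lower, against 4.67% and 10% of all genes, and MS751 5 higher and 7 lower, against 13.7% and 18.5%. Removing the GC trend left MS751 with 1 of 34 members at least 2-fold lower, where 842 of all 12036 genes were lower. Leaving out members whose exons overlap another protein-coding gene was a choice made after the data were seen. It left 1 of 25 members at least 2-fold lower in SiHa (4%) and 3 of 25 in MS751 (12%). Of all genes, overlapping or not, 3.05% and 8.55% were at least 2-fold lower. A prior count of 0.25 put 2 of 34 members past 2-fold higher in MS751. At the main prior count of 1, 3.74% of all genes were at least 2-fold higher there. In the common test DESeq2 called 1 member higher and 1 lower, and 26 and 71 of all genes. With no cell line block, with a mean of at least 5 CPM and with GC offsets, edgeR called 0 genes in either direction. The MDM4 common fold lay between 2.07 and 2.32 over the 8 settings, with adjusted p from 5.31e-05 to 1, and that of GDF15 between -1.57 and -1.30, with adjusted p from 0.0193 to 1. The causes were not tested. Counting limits the low genes most, such as MDM4 with 46 counts in SiHa siControl.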
